A study of Mus musculus with 2 samples.

Results

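Heat shock proteins and chaperones were described through 24 probe sets of 9 genes, out of 45037 probe sets on the arrays other than the manufacturer's controls. The members were 10 listed genes (Hspa1a, Hspa1b, Hspa5, Hspa8, Hsp90aa1, Hsp90ab1, Hsph1, Hspd1, Dnaja1 and Dnajb1), and a probe set was taken when the platform annotation named that gene and no other. A probe set is a group of short probes designed against one transcript, and each gave 1 signal per array. No probe set of Hsp90ab1 was analysed here. The rule itself uses no measured value, but the 10 genes were listed with earlier results of these data known.

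The samples were macrophages from c-Maf-/- embryos (c-Maf KO) and from c-Maf+/+ embryos (wild type) of the C57BL/6J strain at E15.5, with 1 Affymetrix GeneChip array per genotype. c-Maf is the transcription factor encoded by Maf, and the labels name no restriction of its loss to one cell type. Fetal liver cells that stained for both Mac-1 and F4/80 were sorted by flow cytometry, and neither the number of embryos nor any pooling is given in the sources used here. With 1 array per genotype there was no replicate and no test, and each statement describes these 2 arrays.

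Chaperones bind unfolded or newly made proteins and help them fold. HSP70 proteins hold short exposed stretches of a client in a cycle driven by ATP, J-domain proteins bring the client and start the ATP hydrolysis, and HSP110 proteins release the nucleotide. HSP90 proteins take over clients such as kinases and steroid receptors, and the ring-shaped chaperonin of mitochondria, HSP60, encloses its clients. The inducible members are switched on by heat shock factors after heat or other protein damage, and handling of tissue at elevated temperature is known to induce them too.

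Heat shock factors bind inverted repeats of a short GAA unit, and the stress response of the endoplasmic reticulum acts through a longer element. The promoters of the members that hold either motif are shown because induction through these elements is what the family is best known for. Sequences are from RefSeq (GRCm38.p6) and were matched by symbol for 7 of the 10 members. Capitals mark every match within the 250 bases before an annotated start to GAANNTTC or TTCNNGAA, or, for Hspa5, to the endoplasmic reticulum stress response element, which is CCAAT, any 9 bases and then CCACG. Both strands were searched. Up to 20 bases are given on each side.
Hspa1a (chr17:34972233-34972280, minus strand): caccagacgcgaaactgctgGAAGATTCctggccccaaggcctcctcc
Hspa1b (chr17:34959315-34959362, minus strand): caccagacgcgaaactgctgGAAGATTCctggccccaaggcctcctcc
Hspd1 (chr1:55088039-55088096, minus strand): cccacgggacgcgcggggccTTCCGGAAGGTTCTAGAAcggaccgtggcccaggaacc
Hsph1 (chr5:149636342-149636389, minus strand): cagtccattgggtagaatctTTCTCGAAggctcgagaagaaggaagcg
Dnaja1 (chr4:40722324-40722371, plus strand): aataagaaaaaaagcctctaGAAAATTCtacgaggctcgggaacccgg
Hspa5 (chr2:34772005-34772063, plus strand): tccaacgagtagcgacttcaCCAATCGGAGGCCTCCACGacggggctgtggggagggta
The heat shock motif was present before at least 1 listed start of 5 of the 7 members, against 14.5% of 27025 genes counted in the same way. Counted per start, it was in 6 of the members' 12 windows and in 12.8% of all 32851 windows of that length. Hspd1 held 3 matches that overlap each other, which begin 144 bases before the second of its 2 listed starts, and the window of its other start held none. The single Dnaja1 match lay before 1 of 3 listed starts. The longer motif was present before Hspa5, beginning 65 bases before the start, and in 0.113% of all windows. The windows of Dnajb1 held neither motif in these letters.

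The 250 bases before the starts of Hspa1a and Hspa1b were the same at 247 positions (98.8%). These neighbouring genes encode nearly identical proteins, so a probe set named for one may also read the other, and their values are uncertain in that respect.

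The KO array was dimmer in its median signal, which was 2.98 over all probe sets against 4.73 on the wild-type array. Its 18 hybridisation controls, however, were brighter, with a median log2 ratio of 0.24 as deposited. In deposited signal, the median log2 ratio of KO over wild type was -0.84 among the probe sets that passed the floor described here on both arrays. Ratios are therefore given after quantile normalization, which gives both arrays the same distribution of signals, and are called level-adjusted. Deposited signals stand beside them, so that a gene with a small ratio above 0 can still have a lower deposited signal in KO cells. The 4 other scalings examined were no adjustment, equal medians, ratios centred on the median, and scaling to the hybridisation controls. Values under the 50th percentile of both arrays (a deposited signal of 3.70, or 3.75 after adjustment) were set to that floor, and a probe set was called lower or higher when its level-adjusted ratio was at least 2-fold. The spread of level-adjusted ratios between bright probe sets of the same gene was 0.69 log2 units (SD, from 3247 pairs in 1592 genes). It is no replicate error, since every probe set was read on the same pair of arrays.

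The targeted gene was low on the KO array by its brightest probe sets. The brightest Maf probe set had a signal of 0.219 in KO cells and 47.6 in wild-type cells, which is at least 8.51-fold lower after level adjustment. The next had 0.143 in KO cells and 21.0 in wild-type cells, at least 3.90-fold lower. The other measured Maf probe sets were dim, at most 5.50 in wild-type cells, with level-adjusted ratios from -0.21 to 0.07. Whether the Maf probes lie in the deleted part is not known here. Among the macrophage markers, Csf1r, the receptor for colony stimulating factor 1, had signals of 248 in KO cells and 625 in wild-type cells. Adgre1, encoding the sort antigen F4/80, had 48.1 in KO cells and 71.4 in wild-type cells. Itgam, encoding the Mac-1 chain CD11b, was near the floor at 3.94 in KO cells and 5.76 in wild-type cells. Level-adjusted log2 ratios were -0.24 (Csf1r), 0.60 (Adgre1) and 0.16 (Itgam). Markers of other cells were also read far above the floor, including the granulocyte gene S100a9 (3812 in KO cells, 4926 in wild-type cells) and the embryonic globin gene Hbb-y (4650 in KO cells, 7061 in wild-type cells). Which cells the chaperone signals came from was not tested, and fewer cells of a type and less RNA per cell cannot be told apart.

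The 9 chaperone genes were read mostly well above the floor on both arrays, and most of their signals were lower on the KO array, as were those of most bright probe sets. The median deposited log2 ratio was -1.33, against -1.13 over the brightest of 5 equal bins of all measured probe sets. Of the 24 probe sets, 22 were at or above the floor on both arrays, with a median deposited signal of 74.3 in KO cells and 179 in wild-type cells. Of these, 19 lay in the brightest bin and 3 in the next. As deposited, 20 of the 22 had a lower signal in KO cells, and 11354 of 13479 genes were below 0 by their brightest probe set. After level adjustment 13 of the 22 were below 0 and 9 above it, against 6582 of 13290 genes below 0 by their brightest probe set. Counted by gene in that way, 9 of 9 members were below 0 as deposited and 7 of 9 after adjustment. The median log2 ratio of the 22 was -0.16, against 0.013 over all 27756 measured probe sets.

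After level adjustment, 17 of the 22 were within 2-fold, 2 were called lower and 3 were called higher. The lower share was 9.09%, against 9.01% of all measured probe sets, and the higher share was 13.6%, against 8.41%. Among the 8816 probe sets that reached 4 times the floor on an array, the shares were 12.4% lower and 10.7% higher. The level-adjusted counts for the chaperones were thus near the background in both directions, with 5 probe sets called in all. With centred ratios 5 of 22 were lower, against 8.36% of all probe sets, and 1 higher, against 12.6%. In deposited signal 16 of 22, or 72.7%, were at least 2-fold lower, against 35.1% of all probe sets and 57.2% of those in the brightest bin. None of the 22 was at least 2-fold higher in deposited signal, against 1.2% of all probe sets.

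**Figure D1:**
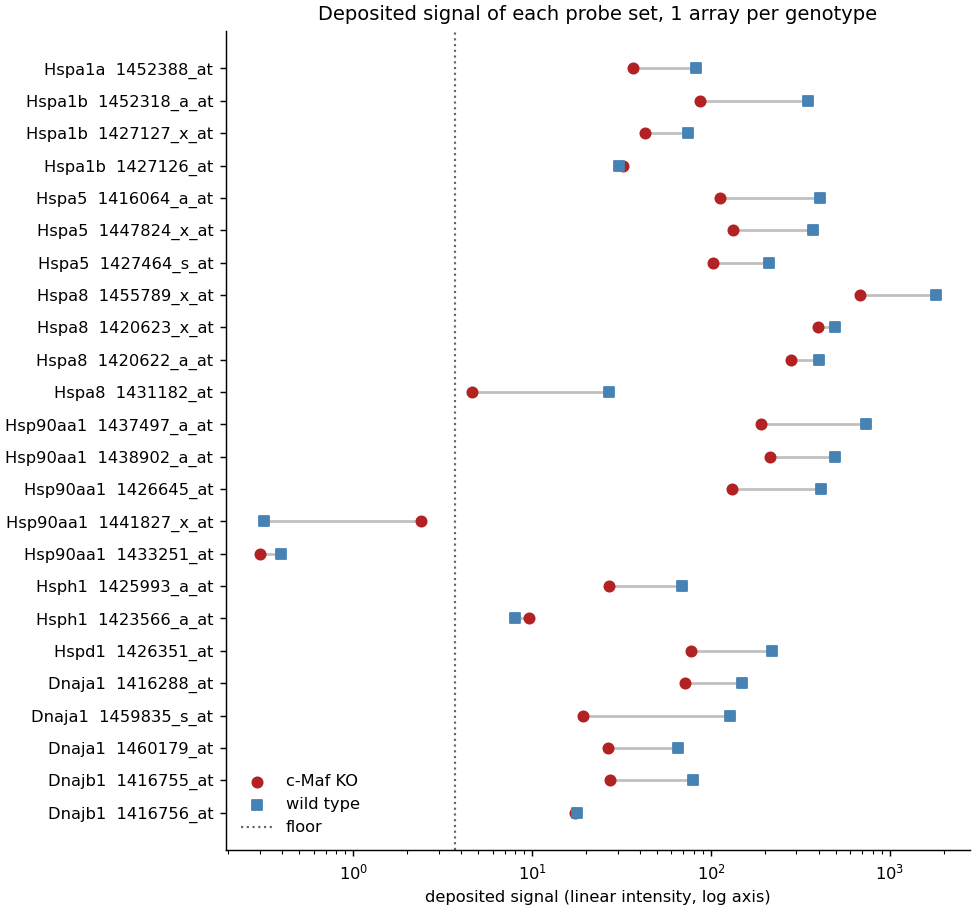
Deposited signal (linear intensity, log axis) of each of the 24 probe sets on the c-Maf KO array (circles) and the wild-type array (squares), with 1 array per genotype; the dotted line is the floor of 3.70. The KO point lies left of the wild-type point for 20 of the 22 probe sets above the floor, and 2 Hsp90aa1 probe sets lie below the floor on both arrays. Over all genes, 11354 of 13479 had a deposited ratio below 0 by their brightest probe set, as did 9 of 9 chaperone genes.

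The stress-inducible HSP70 genes did not give one answer. Hspa1a, whose protein is the cytosolic HSP70 made after heat shock, had 1 probe set (1452388_at), with signals of 36.7 in KO cells and 81.9 in wild-type cells. That is a log2 ratio of -1.16 as deposited and 0.02 after level adjustment, so its deposited ratio was close to the -1.13 of the brightest bin. Hspa1b, its near-identical twin, had 3 probe sets listed with the same source sequence. The brightest (1452318_a_at) had 86.5 in KO cells and 347 in wild-type cells, a level-adjusted ratio of -0.82. The next (1427127_x_at) had 42.6 in KO cells and 74.0 in wild-type cells, a ratio of 0.37. The dimmest (1427126_at) had 32.1 in KO cells and 30.5 in wild-type cells, and its ratio of 1.21 was the highest of all 22. The Hspa1b probe sets thus ran from lower to higher across 2.03 log2 units, against a median span of 0.82 in the 1592 genes with several bright probe sets. The last of them was above 0 in deposited signal too (0.07) but at -0.17 when the arrays were scaled to the hybridisation controls.

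Hspa8, encoding the constitutive cytosolic HSC70 that also strips clathrin from vesicles, had 4 probe sets above the floor. The brightest (1455789_x_at) had a signal of 680 in KO cells and 1802 in wild-type cells, a level-adjusted ratio of -0.72. A pair of probe sets from one shared source sequence went the other way and lay close together. The first (1420623_x_at) had 395 in KO cells and 495 in wild-type cells (0.75), and the second (1420622_a_at) had 281 in KO cells and 401 in wild-type cells (0.60). Both were lower in KO cells as deposited, with ratios of -0.33 and -0.51, so their place above 0 rests on the adjustment. The fourth Hspa8 probe set (1431182_at) was far dimmer, with 4.58 in KO cells and 26.8 in wild-type cells. Its ratio of -1.63, or 3.10-fold lower, was the lowest of the 22, and the Hspa8 ratios spanned 2.38 log2 units in all.

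Hspa5, encoding BiP, the HSP70 of the endoplasmic reticulum and a standard readout of its stress response, was within 2-fold by every probe set. The brightest (1416064_a_at) had 113 in KO cells and 405 in wild-type cells, a level-adjusted ratio of -0.68. The others had 133 in KO cells and 371 in wild-type cells (1447824_x_at, -0.34) and 102 in KO cells and 210 in wild-type cells (1427464_s_at, 0.13). Their span of 0.81 was close to the median span of 0.82. As deposited, all 3 were at least 2-fold lower, with ratios between -1.84 and -1.04.

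Hsph1, the HSP110 protein that releases nucleotide from HSP70, had a brighter probe set (1425993_a_at) with 26.8 in KO cells and 68.7 in wild-type cells, a level-adjusted ratio of -0.19. Its dimmer probe set (1423566_a_at) had 9.59 in KO cells and 8.04 in wild-type cells, a ratio of 1.14. That one was the only probe set of the 22 with a ratio above 0 under all 5 scalings examined, from 0.01 with the hybridisation controls to 1.14.

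Among the J-domain partners of HSP70, Dnaja1 had its highest signal with 1416288_at, at 71.1 in KO cells and 149 in wild-type cells, a level-adjusted ratio of 0.13. A second probe set from the same source sequence (1460179_at) had 26.6 in KO cells and 65.5 in wild-type cells, a ratio of -0.13, so the pair differed by 0.26. The third (1459835_s_at) had 19.2 in KO cells and 127 in wild-type cells, a ratio of -1.57 or 2.97-fold lower. It stood apart from both others and was, with the dim Hspa8 probe set, one of the 2 called lower. Dnajb1, the classical HSP40 and heat-inducible partner of HSP70, had a brighter probe set (1416755_at) with 27.3 in KO cells and 79.0 in wild-type cells (-0.37). A dimmer one from the same source sequence (1416756_at) had 17.3 in KO cells and 17.7 in wild-type cells (1.03). The Dnajb1 pair therefore lay on opposite sides of 0, 1.40 log2 units apart, and the second was at -0.03 as deposited.

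Hsp90aa1, the inducible cytosolic HSP90, had 3 probe sets above the floor, and all had level-adjusted ratios below 0. The brightest (1437497_a_at) had 189 in KO cells and 739 in wild-type cells (-0.93), just inside 2-fold. The second (1438902_a_at) had 213 in KO cells and 496 in wild-type cells (-0.02). The third (1426645_at) had 131 in KO cells and 411 in wild-type cells (-0.50). The order of the 3 signals thus differed between the arrays, as 1437497_a_at was the brightest in wild-type cells and 1438902_a_at in KO cells. The other 2 Hsp90aa1 probe sets were below the floor on both arrays, at 2.39 and 0.300 in KO cells and 0.318 and 0.392 in wild-type cells, and gave no ratio.

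Hspd1, encoding HSP60, the mitochondrial chaperonin, had 1 probe set (1426351_at) with 77.4 in KO cells and 218 in wild-type cells. Its level-adjusted ratio was -0.30 and its deposited ratio -1.49. Hspe1, encoding the HSP10 lid of the same chaperonin, had 88.8 in KO cells and 139 in wild-type cells, a level-adjusted ratio of 0.53. Both were thus within 2-fold after adjustment, on opposite sides of 0, although Hspe1 too was lower in KO cells as deposited (-0.65).

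**Figure D2:**
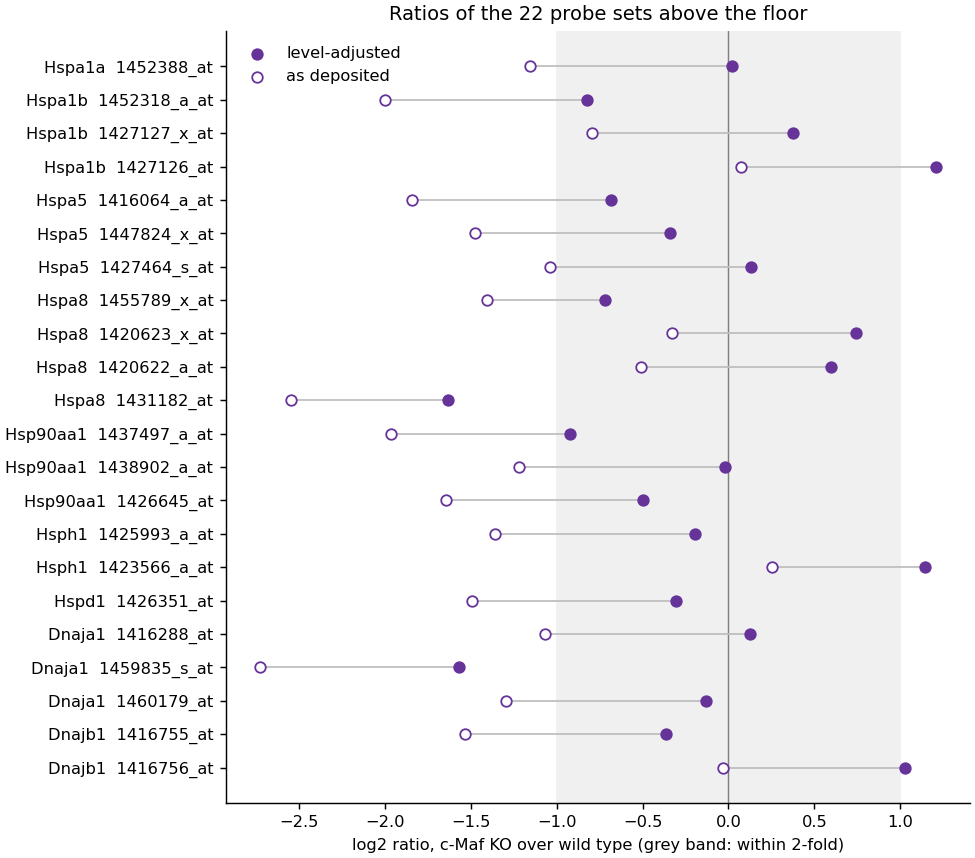
Log2 ratio of c-Maf KO over wild type for each of the 22 probe sets above the floor, after level adjustment (filled) and as deposited (open); the grey band marks ratios within 2-fold. Level-adjusted ratios run from -1.63 to 1.21, and most open points lie left of the band while 17 filled points lie inside it.

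The probe sets of one gene disagreed in most members with several of them. In 6 members with several bright probe sets the median span of level-adjusted ratios was 1.55 log2 units, and 5 of the 6 had a span above the median of 0.82 over all 1592 such genes. No test was made of that difference, since members have between 2 and 4 such probe sets and a span grows with their number. All 3 probe sets called higher were the dimmest measured ones of their gene, and a dimmer probe set of Hspa8 was also the lowest of the 22. With 1 probe set per gene, the brightest, 0 of 9 genes were called in either direction, against 9.05% of 13290 genes lower and 8.34% higher. Their level-adjusted ratios ran from -0.93 to 0.13, with a median of -0.37 against 0.009 over all genes. Of the 9, 7 were below 0, against 6582 of 13290 genes. The members' 13 other measured probe sets had a level-adjusted median of 0.13, with 6 below 0. In deposited signal, all 9 brightest probe sets were at least 2-fold lower, against 39.8% of genes. With equal medians 9 of 9 were below 0, against 8158 of 13290 genes, and 3 at least 2-fold lower, against 16.3%. With centred ratios these counts were also 9 and 3, against 6410 of 13479 genes below 0 and 9.98% at least 2-fold lower. By the brightest probe sets and level-adjusted, the members with a heat shock motif were at 0.02 (Hspa1a), -0.82 (Hspa1b), -0.30 (Hspd1), -0.19 (Hsph1) and 0.13 (Dnaja1). Those whose windows held none were at -0.37 (Dnajb1) and -0.68 (Hspa5). Other probe sets lay on the other side of 0, at 1.21 (Hspa1b), 1.14 (Hsph1), -1.57 (Dnaja1), 1.03 (Dnajb1) and 0.13 (Hspa5). A link between motif and ratio was not tested.

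Suffixes in the identifiers show which probe sets can read more than one transcript. The 13 with an _a, _s or _x suffix had a median ratio of -0.19 (8 below 0), and the 9 without had -0.13 (5 below 0). The manufacturer's controls showed that signal along a transcript differed between the arrays: the 3′ to 5′ signal ratio was 6.05 in KO cells and 13.3 in wild-type cells for Actb, and 0.901 in KO cells and 1.83 in wild-type cells for Gapdh. Where the chaperone probes lie along their transcripts is not known here, and the part of this difference in the disagreement between probe sets was not tested.

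**Figure D3:**
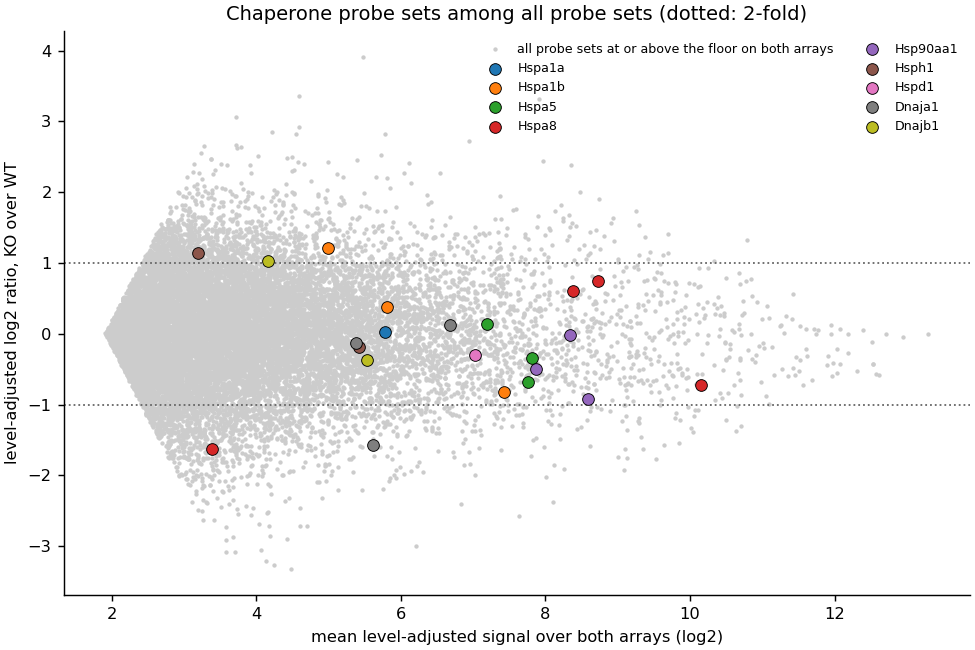
Level-adjusted log2 ratio of c-Maf KO over wild type against mean level-adjusted signal (log2) for all probe sets at or above the floor on both arrays (grey) and the 22 chaperone probe sets (coloured by gene); dotted lines mark 2-fold. The chaperones lie toward the bright end, and their 5 points beyond 2-fold lie among many grey points.

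The wider chaperone network was followed in 7 lists of 109 other genes, of which 96 were measured with 1 probe set each. Of these, 11 were at least 2-fold lower (11.5%, against 9.05% of all genes) and 12 at least 2-fold higher (12.5%, against 8.34%). The median level-adjusted ratio was -0.002. As with the members, the level-adjusted counts were close to those of all genes. With centred ratios 16 of 95 were at least 2-fold lower, against 9.98% of all genes, and 9 higher, against 11.5%. After level adjustment 5 of the 7 list medians were below 0 and 2 above it, while as deposited 6 were below 0 and the small heat shock proteins alone were above it. The level-adjusted counts of each list stand against the same shares of all genes, 9.05% lower and 8.34% higher. No difference between lists was tested. Probe sets of one gene disagreed here too, since 27 of the 49 genes with several measured probe sets (55.1%) had them on both sides of 0, against 56.9% of 5599 such genes in all.

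Of the other HSP70, HSP110 and HSP90 genes, 4 of 9 measured were at least 2-fold lower and 0 higher, with a median of -0.90. The lowest measured on both arrays was Hsp90b1, encoding GRP94, the HSP90 of the endoplasmic reticulum, with 97.2 in KO cells and 738 in wild-type cells (-1.86, or 3.63-fold lower). A second Hsp90b1 probe set, however, was at 0.46. Hspa14, a ribosome-associated HSP70, had 7.37 in KO cells and 40.5 in wild-type cells (-1.43, with all its 3 probe sets below 0). Hspa9, the HSP70 of mitochondria, had 21.6 in KO cells and 129 in wild-type cells (-1.41), while its other probe sets were at 0.29 and -0.17. Hspa4l, an HSP110 gene, was below the floor in KO cells and at 20.7 in wild-type cells, at least 3.86-fold lower, and its other probe sets ran from -1.14 to 0.12. Hspa9 and Hspa4l were named after their values were seen. At the other end Trap1, the mitochondrial HSP90, was at 0.07 and Hspa4, another HSP110 gene, at 0.16, with other Hspa4 probe sets between -1.58 and 0.98. By the brightest probe set of each gene, the count of lower genes was 4 with centred ratios (against 9.98% of all genes) and 5 with equal medians (16.3%). It was 7 as deposited (39.8%) and 8 with the hybridisation controls (49.5%). All these counts rest on that choice of probe set. After level adjustment Hsp90b1, Hspa9 and Hspa4l each had another probe set above 0, and the other Hspa14 probe sets were within 2-fold (-0.62 and -0.20).

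Further J-domain genes had 4 of 23 lower, 2 higher and a median of -0.48. Dnajc14 had 5.36 in KO cells and 69.7 in wild-type cells (-2.71), although another of its probe sets was at -0.31. Dnajc2, a partner of ribosome-bound HSP70, had 20.1 in KO cells and 118 in wild-type cells (-1.39). In the other direction Dnaja2, a close relative of Dnaja1, had 119 in KO cells and 100.5 in wild-type cells (1.42), while a further Dnaja2 probe set was at -1.94. Dnajc15, a mitochondrial J-domain protein, was at 0.88. The others past 2-fold, named after their values were seen, were Dnajc1 (-1.26, with another probe set at 0.84), Dnajb9 (-1.14) and Dnaja4, which was below the floor in wild-type cells and at least 2.25-fold higher in KO cells.

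Cofactors of HSP70 and HSP90 were spread evenly, with 2 of 21 lower, 3 higher and a median of -0.10. The lower ones were both nucleotide exchange factors. Hspbp1, of cytosolic HSP70, had 5.49 in KO cells and 30.5 in wild-type cells (-1.52), and Sil1, of BiP, had 7.36 in KO cells and 30.6 in wild-type cells (-1.05). The highest was Cdc37, which brings kinases to HSP90, with 57.5 in KO cells and 45.7 in wild-type cells (2.83-fold higher). Grpel1, the nucleotide exchange factor of mitochondrial HSP70, had 22.8 in KO cells and 21.5 in wild-type cells (1.17). Unc45a, a myosin chaperone that binds HSP90, was just past 2-fold (1.04, with another probe set at -0.47) and was named after its value was seen.

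Small heat shock proteins, which hold unfolded proteins without ATP, were dim, and 5 of 6 measured genes were called higher, against 8.34% of all genes. Their median level-adjusted ratio was 1.14. In deposited signal 0 of 6 were at least 2-fold higher, against 1.19% of all genes. As deposited 5 of 6 were above 0, against 2125 of 13479 genes, with a list median of 0.30. With the hybridisation controls as the scale 4 of 6 were above 0, against 1449 of 13603 genes. Hspb1, encoding HSP27, had 10.8 in KO cells and 8.89 in wild-type cells (1.19), and Hspb8, a partner of the cochaperone BAG3, had 7.38 in KO cells and 5.87 in wild-type cells (1.14). Hspb11, whose protein is known as a subunit of intraflagellar transport, had 8.25 in KO cells and 5.64 in wild-type cells (1.38). Hspb7 had 6.67 in KO cells and 5.66 in wild-type cells (1.02). The fifth, Hspb3, was below the floor in wild-type cells and at least 2.21-fold higher in KO cells. Second probe sets of Hspb7 (-0.02) and Hspb8 (-0.32), both bounds, were below 0, and no signal in this list exceeded 10.8 on the KO array or 8.89 on the wild-type array.

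The list of chaperonin and prefoldin genes held Hspe1, genes of the cytosolic chaperonin ring, which folds actin and tubulin, and genes of prefoldin, which delivers clients to that ring. By the brightest probe set, 0 of the 15 measured were called in either direction after level adjustment, with a median of 0.42. As deposited 3 were at least 2-fold lower, against 39.8% of all genes, and with the hybridisation controls 7 were, against 49.5%. After level adjustment 13 were above 0, against 6703 of 13290 genes in all. With equal medians 7 were, against 5132 of 13290, and in deposited signal 0, against 2125 of 13479. The lowest were the ring subunit genes Cct3 (240 in KO cells, 608 in wild-type cells, -0.23) and Cct4 (392 in KO cells, 773 in wild-type cells, -0.04), but another Cct4 probe set was at 2.85 and those of Cct3 ran from -0.91 to 1.24. The highest were Vbp1, a prefoldin gene (43.5 in KO cells, 55.7 in wild-type cells, 0.80), and the ring subunit gene Cct2 (176 in KO cells, 247 in wild-type cells, 0.67).

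In the endoplasmic reticulum, the compartment of Hspa5, 1 of 16 folding genes was lower and 0 higher, with a median of -0.17. The lowest were the lectin chaperones of glycoprotein folding: Canx, encoding calnexin, had 53.8 in KO cells and 315 in wild-type cells (-1.38), and Calr, encoding calreticulin, had 149 in KO cells and 647 in wild-type cells (-0.98). One further Canx probe set was at 0.71, while the Calr probe sets were all below 0. The highest were P4hb, encoding protein disulfide isomerase (129 in KO cells, 181 in wild-type cells, 0.68), and Herpud1, a component of the degradation pathway of this compartment (10.2 in KO cells, 11.4 in wild-type cells, 0.78). A second Herpud1 probe set, with 2.28 in KO cells, below the floor, and 11.5 in wild-type cells, was at least 2.27-fold lower.

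Among heat shock factors and regulators, Hsf2, encoding heat shock factor 2, had 5.45 in KO cells and 19.1 in wild-type cells (-0.90), and a second Hsf2 probe set was at least 2.41-fold higher. Hsf1, the factor of the classical heat shock response, was not analysed here. Vcp, an ATPase that extracts proteins for degradation, had 97.9 in KO cells and 322 in wild-type cells (-0.54), and a second Vcp probe set was at -1.97. Hsbp1, which binds heat shock factor 1, had 16.7 in KO cells and 17.4 in wild-type cells (1.002, just past 2-fold). A second Hsbp1 probe set, near the floor, was at 0.08. Nfe2l1, a transcription factor of proteasome genes, was at 0.06. Of the 6 measured genes, 0 were lower and 2 higher, Hsbp1 and Hsf4, which was below the floor in wild-type cells and at least 3.02-fold higher in KO cells.

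**Figure D4:**
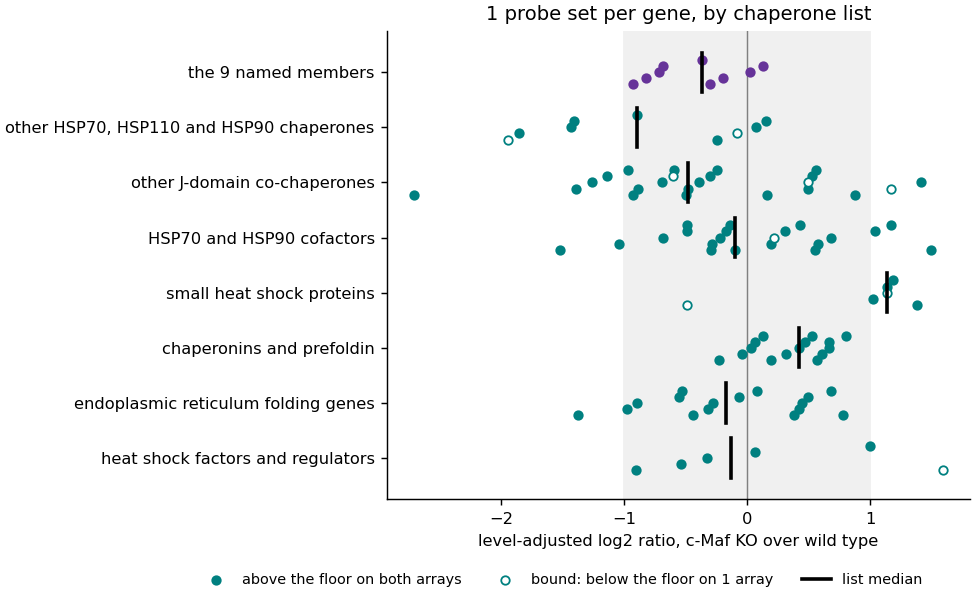
Level-adjusted log2 ratio of c-Maf KO over wild type for each measured gene of the 9 named members (top row) and of 7 wider chaperone lists, with 1 probe set per gene; open points are bounds and the black bars are list medians. Medians run from -0.90 for the other HSP70, HSP110 and HSP90 genes to 1.14 for the small heat shock proteins.

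Markers of other cells and of handling were read on the same arrays, and their counts stand against 9.05% of all genes lower and 8.34% higher. Level-adjusted medians were 0.39 for macrophage, 1.90 for hepatoblast, -0.52 for granulocyte, 0.25 for erythroid and -0.50 for immediate early genes, against 0.009 over all genes. All sums are of deposited signals, and the median deposited log2 ratio over all genes was -0.79. Macrophage markers had 1 of 10 lower and 3 higher, with sums of 778 in KO cells and 1644 in wild-type cells, of which Lyz2 gave 355 in KO cells and 646 in wild-type cells. Hepatoblast markers were at least 2-fold higher in 8 of 8 measured genes, or 3 of 8 in deposited signal (against 1.19% of all genes), with summed deposited signals of 584 in KO cells and 369 in wild-type cells. Their brightest were Afp (268 in KO cells, 209 in wild-type cells) and Alb (136 in KO cells, 63.8 in wild-type cells), while Fgb and Apob were below the floor on both arrays. Granulocyte markers had 2 of 9 lower (Camp and Mpo) and 0 higher, with sums of 8644 in KO cells and 14997 in wild-type cells, and S100a8 was at 3317 in KO cells and 4717 in wild-type cells. Erythroid markers had 0 of 8 lower and 1 higher (Klf1), with sums of 5450 in KO cells and 8526 in wild-type cells, of which Slc4a1 gave 395 in KO cells and 831 in wild-type cells. Immediate early genes, which respond to cell dissociation as the heat shock genes can, had 5 of 15 lower (Egr1, Fos, Jun, Klf4 and Nr4a1) and 1 higher (Ier3), with sums of 978 in KO cells and 1945 in wild-type cells. Egr1 had 20.2 in KO cells and 181 in wild-type cells (-1.998), whereas Jund, the brightest of the list, was at 0.14. Genes commonly used as references had 1 of 8 lower (Ywhaz) and 1 higher (B2m), and Actb was at 0.21. The part of any of these in the chaperone signals was not tested.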

How the data were processed

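The authors deposited 1 linear intensity per probe set and array, from Affymetrix GeneChips hybridised with biotin-labelled RNA per the labels' protocols. The summarisation, scaling and any filter are not given in the sources used here, and detection calls were not used. Signals ran from 0.0203 to 10606; the number of arrays limits the precision. Of 45037 probe sets other than 64 controls, 34945 had 1 gene symbol, 932 several and 9160 none in the annotation used; symbols were brought up to date by Entrez identifier (GRCm38.p6).

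Signals were quantile normalized (mean of log2 values at each rank), floored at the pooled 50th percentile, and expressed as log2 ratios of KO over wild type. In lists, a gene's brightest probe set (mean of both deposited signals) stood for it. Named genes were all members, Maf, the 2 lowest and 2 highest genes measured on both arrays in each chaperone list, Hsf2, Hspe1, Hsp90b1, Adgre1, Csf1r and the 2 brightest markers per list; other genes past 2-fold or below the floor, and Itgam, were named after their values were seen. Members and lists were chosen with earlier results of these data known. The code was tested on simulated data. Python 3.11.15, numpy 2.4.6 and pandas 2.3.3 were used.

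Alternatives changed the scaling (as deposited, equal medians, centred ratios, hybridisation controls), the floor, the fold, the brightness limit and the probe sets used.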

Additional observations from a re-analysis of the deposited data

How the results depend on the processing

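With 1 array per genotype no array could be left out. No paired analysis was possible because each genotype had 1 array. Of 206 values of single probe sets under the alternatives, 163 moved by less than 0.69 and 43 by more, and 22 changed sign, all under another scaling (7 as deposited, 4 with equal medians, 3 with centred ratios and 8 with the hybridisation controls). Of these 22, 3 were values past 2-fold: Dnajb1 1416756_at to -0.031 as deposited and -0.27 with the hybridisation controls, and Hspa1b 1427126_at to -0.17 with those controls. As deposited, the chaperone probe sets had a median of -1.33, with 20 below 0, 16 at least 2-fold lower (against 35.1% of all probe sets) and 0 higher (1.2%). Scaled to the hybridisation controls these values were -1.57, 21, 17 (43.7%) and 0 (0.705%). With 1 probe set per gene, 11354 of 13479 genes were below 0 as deposited and 12154 of 13603 with these controls. With equal medians 5 chaperone probe sets were lower (14.6%) and 0 higher (4.92%), and with centred ratios 5 lower (8.36%) and 1 higher (12.6%). The pseudocount left 1 higher (8.55%). Without suffixed probe sets 5 of 9 were below 0, 1 was lower (9.08%) and 2 were higher (7.71%). At 1.5-fold 6 were lower (20.8%) and 5 higher (21.0%), at 3-fold 1 (2.25%) and 0 (1.52%), and with 1 probe set per gene 0 and 0 (9.05% and 8.34% of genes). In the wider lists the counts of 11 lower and 12 higher of 96 became 47 and 1 of 95 as deposited (against 39.8% and 1.19% of all genes). With equal medians they were 22 and 4 of 96 (16.3% and 4.74%), and with centred ratios 16 and 9 of 95 (9.98% and 11.5%). They were 59 and 0 of 95 with the hybridisation controls (49.5% and 0.765%), and 5 and 6 of 96 with means over probe sets (5.14% and 6.59%). The count of higher genes was 6 of 89 with the floor at the 65th percentile (6.01%). It was 6 of 96 with the pseudocount (7.24%) and 6 of 67 with at least 4 times the floor (8.63%). Centring each ratio on its signal bin, chosen after seeing the data, left every count within 1.5 times and the median within 0.69 of the level-adjusted ones. Dim probe sets limit the small heat shock proteins most, with signals close to the floor of 3.75. Beyond the change of setting itself, the cause was not tested.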
